A study of Mus musculus with 5 samples.

Results

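The genes described here are 8 members of the scaffold that builds and organises the apical surface of epithelial cells: the PDZ scaffold genes Pdzd3, Pdzk1, Slc9a3r1 and Slc9a3r2, the membrane linker gene Ezr, and the actin regulators Vil1, Espn and Eps8. They were taken by gene symbol from the array's probe annotation, which names 10 probes for these 8 genes among 24613 probes and 15967 named genes in all. Pdzd3 was chosen by its measured fall between the control and knockdown arrays described below, so its values are given as a description with no test. The other 7 were named for their role in the apical surface, but with earlier results of these data known. The same holds for the gene lists below, so their p-values and shares called are not independent of the choice. The RNA came from F9, an embryonal carcinoma line of the mouse that turns towards extra-embryonic endoderm under retinoic acid, and was read on Illumina arrays. All 5 arrays carry the retinoic acid label, controls included. The 2 control arrays are of cells labelled as control, and the 3 knockdown arrays are of cells in which Sox7 and Sox17, related transcription factors of endoderm, were reduced together. The labels used here do not state how the knockdown was made, what the control cells received, or the dose and duration of retinoic acid. Nothing says that the numbered samples are separate cultures, so the p-values measure the spread between these arrays, which may be technical.

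A microvillus is a finger of membrane around a bundle of actin filaments. Villin, espin and EPS8 bundle and cap the filaments, and ezrin ties them to the membrane. The PDZ scaffolds of the Na+/H+ exchanger regulatory factor family sit under that membrane, several of them bound to ezrin, and hold transporters and receptors by their C-terminal tails. Visceral endoderm, the absorptive layer of the early mouse embryo, carries such microvilli on its apical face.

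Of the 8 genes, 7 have an annotated start in the RefSeq start-region table of GRCm38.p6, 11 starts in all. Eps8 has none there and was not searched. The 250 bases before the start are shown for Pdzd3, the member chosen for its fall, and for Ezr, the member that rose. Capitals mark matches, on either strand, to TATAA (the TATA box), GGGCGG (the GC box) and ACAAT (the core bound by SOX factors).
Pdzd3, minus strand, chr9:44251465-44251714: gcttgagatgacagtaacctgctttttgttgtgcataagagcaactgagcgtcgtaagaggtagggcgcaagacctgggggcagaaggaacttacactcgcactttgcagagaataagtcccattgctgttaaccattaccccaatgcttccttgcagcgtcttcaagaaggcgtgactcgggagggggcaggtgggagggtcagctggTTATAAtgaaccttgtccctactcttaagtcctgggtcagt
Ezr, minus strand, chr17:6782781-6783030: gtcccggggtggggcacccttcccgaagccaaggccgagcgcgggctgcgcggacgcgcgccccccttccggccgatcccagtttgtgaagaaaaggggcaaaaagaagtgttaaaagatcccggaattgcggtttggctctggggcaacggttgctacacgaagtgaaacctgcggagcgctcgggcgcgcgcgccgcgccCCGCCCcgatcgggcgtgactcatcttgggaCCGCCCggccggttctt

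The start regions of these genes differ in composition. That of Pdzd3 has a GC content of 51.2% and a TATAA read on both strands with overlap, 36 to 41 bases before the start, and no GC box. That of Ezr has a GC content of 67.2% and 2 GC boxes, the nearer 12 to 17 bases before the start, and no TATAA. The median GC content over all 32851 start regions is 52.4%. ACAAT lies in neither region shown, and among the 11 starts, none of them of Eps8, it lies in the 2 of Pdzk1. Of all start regions of the same length, 27.7% hold ACAAT, 22.8% hold TATAA and 32.7% hold GGGCGG. A match is a match of letters, and the absence of one says only that these letters are not in this window.

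Both targeted transcripts were lower in the knockdown arrays. Values here and below are the deposited normalized intensities. Sox17 read 1798 and 1732 in the control arrays and 283, 309 and 243 in the knockdown arrays, 16.5% of the control level on the log2 scale described next. Sox7 read 1306 and 1152 against 490.1, 403 and 471, or 37.8%. Differences are knockdown minus control of log2(intensity + 16), an offset that shrinks the differences of dim probes, and come from limma fitted to 13624 probes. A call is a Benjamini-Hochberg adjusted p below 0.05 over all of these probes. Among 9685 genes tested, 1643 were called, a background of 17% (7.97% lower and 8.99% higher). Without control replicates 1 and 2 in turn, 578 and 443 of the 9685 were called. Without knockdown replicates 1, 2 and 3 in turn, 1107, 1032 and 882 were called. List counts below with an array left out belong beside these numbers, not beside 17%. The noise threshold, from the mirrored values below 0 of each array, was 20.1 to 20.2 intensity units. Intensities of different probes cannot be set against each other, so each gene is compared only with itself.

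**Figure D1:**
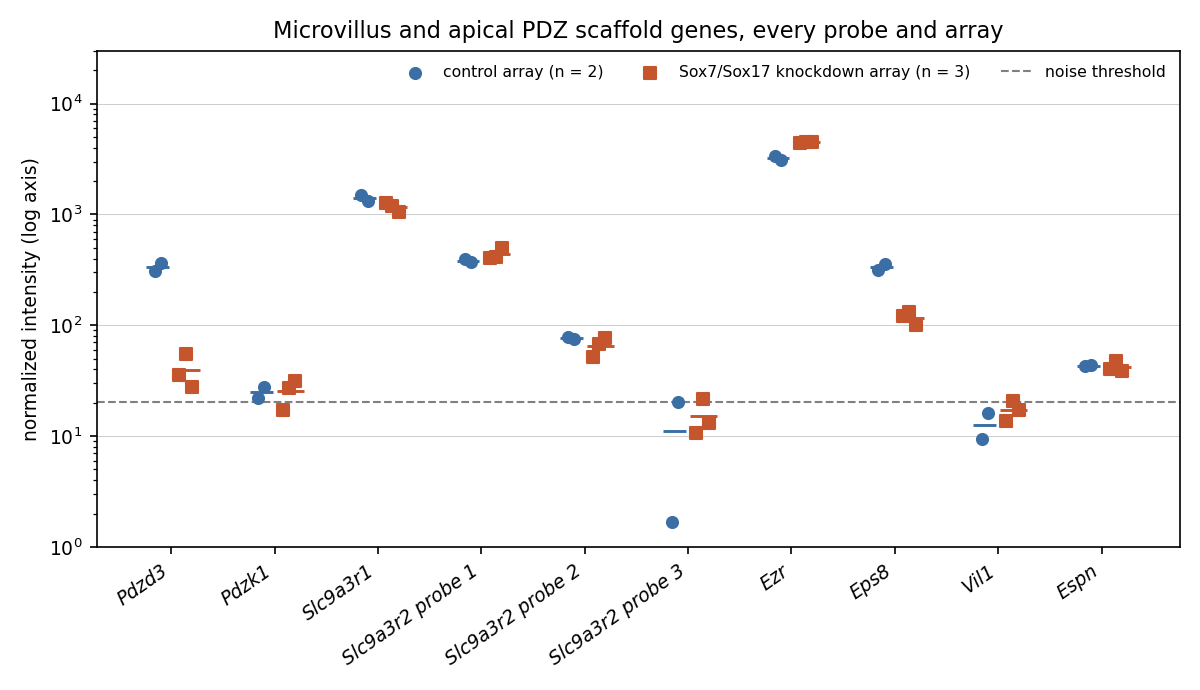
Normalized intensity (log axis) of each of the 10 probes on the 2 control arrays (circles) and 3 knockdown arrays (squares), with horizontal bars for group means and a dashed line at the noise threshold. Pdzd3 and Eps8 are lower on all 3 knockdown arrays, Ezr is higher on all 3, and Vil1 and the third Slc9a3r2 probe lie near or under the threshold.

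Across the 7 genes other than Pdzd3, the changes were few and went both ways. Eps8 fell, Ezr rose, and 4 of the 6 tested genes were not called, with a median difference of -0.01 against 0.0047 over all tested genes. The remaining gene, Vil1, was too dim to be tested. The share called, 33.3% beside the background of 17%, rests on 2 genes, and 1 gene was called with any 1 array left out. The control and knockdown arrays did not overlap for 4 of the 6, beside 51.6% of all tested genes.

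Pdzd3 encodes a scaffold with several PDZ domains, found in the brush border of intestine and kidney, that binds the intestinal guanylyl cyclase receptor. Its only probe (ILMN_1258691) read 307 and 367 in the control arrays and 35.3, 54.9 and 27.8 in the knockdown arrays. Every knockdown array was well under both controls, and all 3 were still above the noise threshold. The means were 337 ± 42.5 (SD, n = 2) and 39.3 ± 14.0 (SD, n = 3), and the log2 difference was -2.70, 15.4% of the control level. This fall, the 11th largest among 9685 tested genes, is what chose the gene. Its size depends on the offset added before the logarithm, from -1.96 at an offset of 64 to -3.12 at an offset of 1.

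The PDZ scaffolds closest to Pdzd3 in kind were not called. Pdzk1, which holds transporters at the apical membrane of the kidney tubule and the HDL receptor in liver, was dim, with 21.99 and 27.8 in control and 17.1, 27.3 and 31.4 in knockdown arrays. The groups overlapped and the difference was 0.00057 (95% interval -0.43 to 0.43, limma adjusted p = 0.999). A probe this near the noise threshold would show a fall only in part.

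Slc9a3r1 encodes the founding member of the family, which links ezrin to transporters and receptors of the microvillus. It read 1500.5 and 1314 in control cells and 1261, 1183 and 1042 in knockdown cells. All 3 knockdown arrays were below both controls, but the gap from the lower control to the highest knockdown array was smaller than that between the controls. The difference was -0.27 (95% interval -0.58 to 0.03, limma adjusted p = 0.19), an interval that holds both no difference and a modest fall.

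Slc9a3r2, its paralog, has 3 probes. The brightest (ILMN_2710274) read 395 and 371 in control and 401, 412 and 501 in knockdown arrays, all 3 above the controls, with a difference of 0.18 (95% interval -0.13 to 0.49, limma adjusted p = 0.39). The second (ILMN_1231582) read 77.8 and 75.2 against 51.9, 68.3 and 76.0 and differed in the other direction, by -0.20 (limma adjusted p = 0.42). The third (ILMN_1218241), annotated to another transcript of the gene, passed the noise threshold on 2 arrays only, control replicate 2 at 20.4 and knockdown replicate 2 at 21.5. None of the 3 was called, and the 2 brighter ones disagree in sign.

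**Figure D2:**
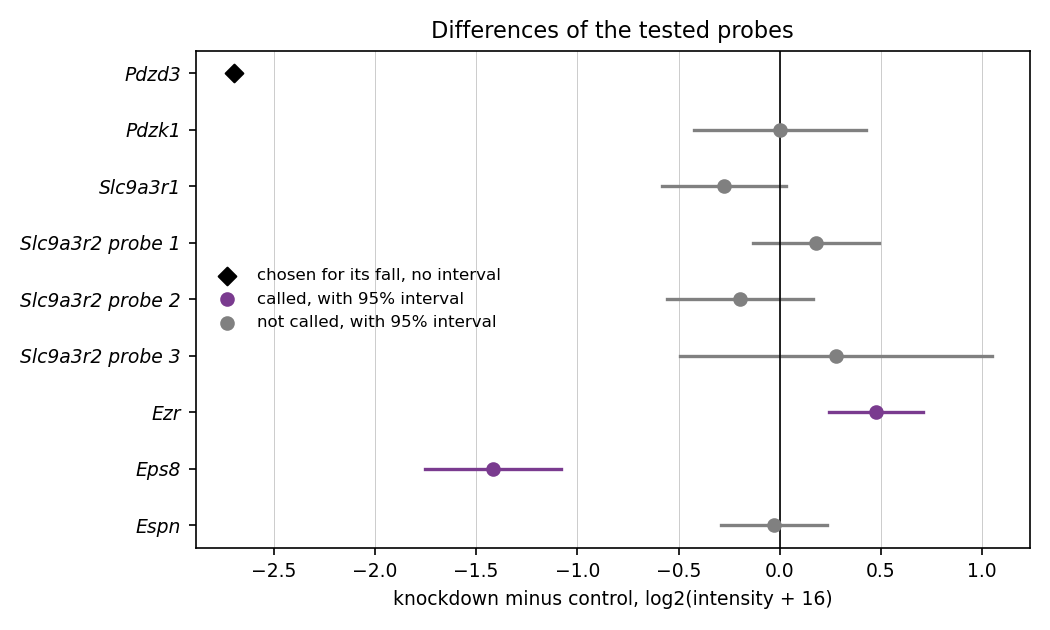
Knockdown minus control on the log2(intensity + 16) scale for the 9 tested probes, with the 95% interval from limma except for Pdzd3, which was chosen for its fall. Eps8 at -1.42 and Ezr at 0.48 have intervals clear of 0, and the intervals of all probes of Pdzk1, Slc9a3r1, Slc9a3r2 and Espn include 0.

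Ezr, the linker between the membrane scaffolds and the actin core, rose. It read 3359 and 3093 in control cells and 4458, 4516 and 4497 in knockdown cells. The knockdown arrays lay close together and all were above both controls, a difference of 0.48 (SE 0.0950, limma adjusted p = 0.024), or 1.39-fold. A value above that of Ezr was found for 10.1% of tested genes. The call was lost when any 1 of the 5 arrays was left out, with limma adjusted p from 0.060 to 0.14 and a difference from 0.42 to 0.54.

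Eps8, which caps actin filaments and is found at the tips of microvilli, fell. Its probe (ILMN_2623776) read 317 and 361 in control arrays and 122, 131 and 99.6 in knockdown arrays. Every knockdown array was far below the lower control, and the groups did not overlap. The difference was -1.42 (SE 0.137, limma adjusted p = 0.0027), 37.5% of the control level. Only 120 of the tested genes, 1.24%, had a lower value. It stayed called whichever array was dropped, at limma adjusted p of 0.0089 to 0.030.

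Of the genes for bundling proteins of the core, Espn was not called and Vil1 could not be tested. Espn, encoding the actin bundler espin of microvilli and stereocilia, read 42.9 and 43.5 in control and 40.5, 47.5 and 38.5 in knockdown arrays, with the controls inside the knockdown range and a difference of -0.03 (95% interval -0.29 to 0.24, limma adjusted p = 0.89). Vil1, encoding villin, a defining protein of the brush border, read 9.39 and 16.05 in control and 13.8, 20.9 and 17.3 in knockdown arrays. It was above the noise threshold on 1 array only, knockdown replicate 2, and was not tested. In these cells the Vil1 transcript was therefore not well above background in either group.

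Among paralogs and direct partners of these genes, Msn and Avil were called higher and Podxl, described below, was called lower. The partner Gucy2c and the paralog Espnl had no probe. Msn, the ezrin relative moesin, rose by 0.47 (SE 0.107, limma adjusted p = 0.036), from 319 and 299.6 to 403, 467 and 431, and its call was lost when any 1 array was left out (limma adjusted p from 0.053 to 0.18). Rdx, the third relative, differed by -0.22 (95% interval -0.61 to 0.17, limma adjusted p = 0.39) at its brighter probe and by -0.06 at the other. The Eps8 paralogs Eps8l1, Eps8l2 and Eps8l3 were under the noise threshold on all 5 arrays. Vill, a villin relative, differed by 0.11 (95% interval -0.16 to 0.38, limma adjusted p = 0.53). Avil, the villin relative advillin, rose by 2.26 (SE 0.515, limma adjusted p = 0.036), from -2.75 and 40.1 to 142, 92.4 and 156. The controls lay far apart, and the difference was 1.35 without control replicate 1 and 3.16 without control replicate 2. The call was lost without control replicate 1 or any 1 knockdown array (limma adjusted p from 0.065 to 0.097), with an offset of 1 (0.15) and with no filter on dim probes (0.21). The offset moved the difference between 1.23 and 4.32.

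Listed genes of the microvillus core and its motors and linkers, members left out, changed in both directions. This list includes Msn and Avil, described above, which are among its rises. Of 33 listed, 29 had a probe and 20 were tested, of which 2 fell and 4 rose (30% called beside 17% of all genes), with a median of 0.21. Myo6, the motor that moves towards the base of the microvillus and carries endocytic cargo, read 3352 and 3541 in control and 476, 809 and 636 in knockdown arrays. All 3 knockdown arrays were far below the controls, a difference of -2.43 (SE 0.215, limma adjusted p = 0.0020). Myo5b, the motor of apical recycling endosomes, read 98.7 and 85.3 against 37.0, 29.1 and 23.6 and fell by 1.24 (SE 0.149, limma adjusted p = 0.0053). Both falls stayed called whichever array was dropped. Cobl, an actin nucleator, rose by 0.54 (limma adjusted p = 0.028). Calml4, a light chain of the microvillus tip link complex, was under the noise threshold in both controls and in knockdown replicate 3, and at least 1.19-fold higher. It passed the filter only through the knockdown arrays, which fixed its direction, and the list has 3 rises without it. Cobl lost its call without any 1 array (limma adjusted p from 0.064 to 0.14). At most 1 rise was called in this list once any 1 array was left out, and 3 falls were called without knockdown replicate 1.

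**Figure D3:**
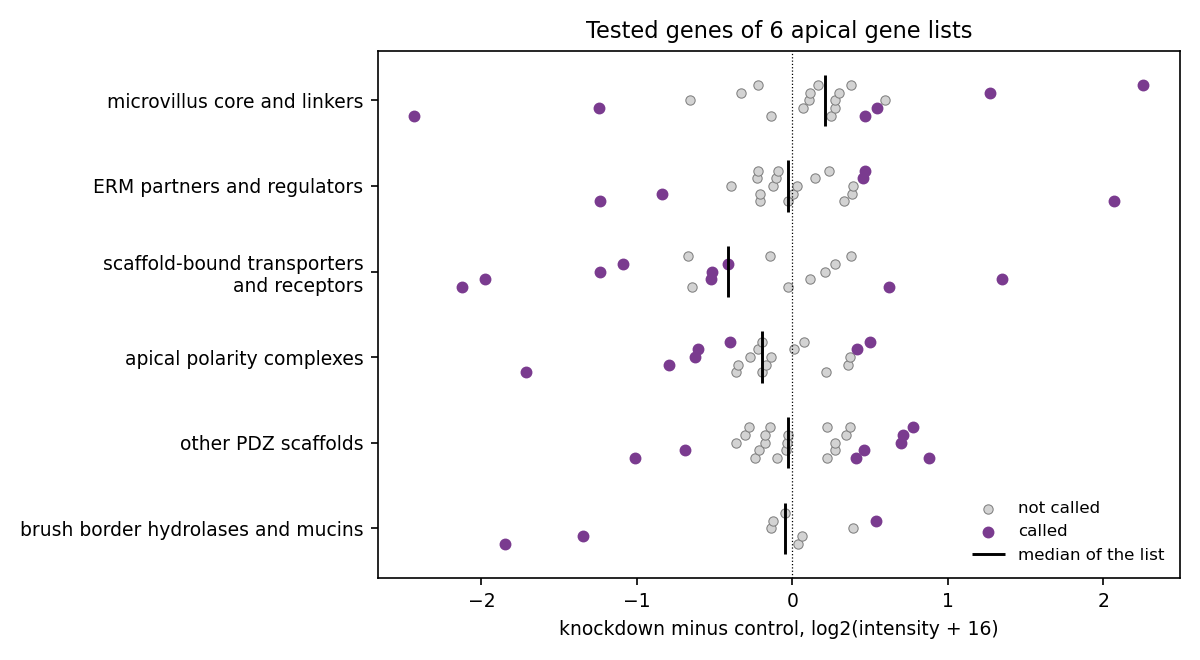
Knockdown minus control on the log2(intensity + 16) scale for each tested gene of 6 apical gene lists, members excluded, with called genes in purple and black bars at list medians. The list of transporters and receptors held by the PDZ scaffolds has its median at -0.41, and the other 5 medians lie between -0.19 and 0.21.

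Transporters and receptors that the PDZ scaffolds hold were called in both directions. Of 38 listed, 34 had a probe and 17 were tested, with 7 lower and 2 higher (52.9% called beside 17%) and a median of -0.41. Pth1r, the parathyroid hormone receptor, which binds the scaffolds by its tail, read 210.4 and 153 in control and 35.4, 21.6 and 30.8 in knockdown arrays, well apart. It fell by 2.12 (SE 0.187, limma adjusted p = 0.0020), and its other probe differed by -2.57. Pdgfra, a growth factor receptor, fell by 1.97 (SE 0.130, limma adjusted p = 0.00095), from 3886 and 4559.6 to 1093, 1147 and 949.95. Podxl, the anti-adhesive sialomucin podocalyxin, which binds ezrin through the scaffolds, read 2840.0 and 2134 against 1139, 1057 and 916. The controls differed widely from each other, and even so all 3 knockdown arrays were below both, a difference of -1.24 (SE 0.162, limma adjusted p = 0.0070).

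Both rises in that list were of signalling genes, and so were the falls of Pth1r and Pdgfra. Plcb3, a phospholipase held by the scaffolds, rose by 1.35 (SE 0.126, limma adjusted p = 0.0024), from 373 and 404 to 1016, 902 and 1131. Pdgfrb rose by 0.62 (limma adjusted p = 0.017), a call lost without either control array or without knockdown replicate 2 or 3 (limma adjusted p from 0.053 to 0.10). Scarb1, the HDL receptor held by Pdzk1, differed by 0.11 (95% interval -0.17 to 0.39). Slc9a3, the apical Na+/H+ exchanger that gives the scaffold family its name, and Pdzk1ip1, a small membrane partner of Pdzk1, were under the noise threshold on all 5 arrays. Pth1r is also a parietal endoderm marker and Pdgfrb a fibroblast marker. The number of falls was 3 without either control array, 5 without knockdown replicate 1 and 4 without knockdown replicate 2 or 3, and 1 rise was called in place of 2 in every case but that without knockdown replicate 1. Calls over all tested genes dropped too, from 1643 to 578 and 443 without control replicates 1 and 2.

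Partners and regulators of ezrin and its relatives were mixed. Of 21 tested, 2 fell and 3 rose (23.8% called beside 17%), with a median of -0.03. Msn, described above, is again among the rises. Podxl, described above, and Rhog, a small GTPase, fell, the second by 0.84 (limma adjusted p = 0.010, lost without either control array, up to 0.072). Msln, the surface protein mesothelin, was under the threshold in both controls, at 9.32 and 5.41, and read 95.4, 48.8 and 114 in knockdown arrays, at least 2.71-fold higher. It passed the filter only through the knockdown arrays, which fixed its direction, and the list has 2 rises without it. Stk10, a kinase of ezrin and its relatives, rose by 0.46 (limma adjusted p = 0.043), a call lost without any 1 array (up to 0.18). Without either control array 1 fall was called and all 3 rises lost their calls, and without any 1 knockdown array 2 falls and 1 rise were called.

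**Figure D4:**
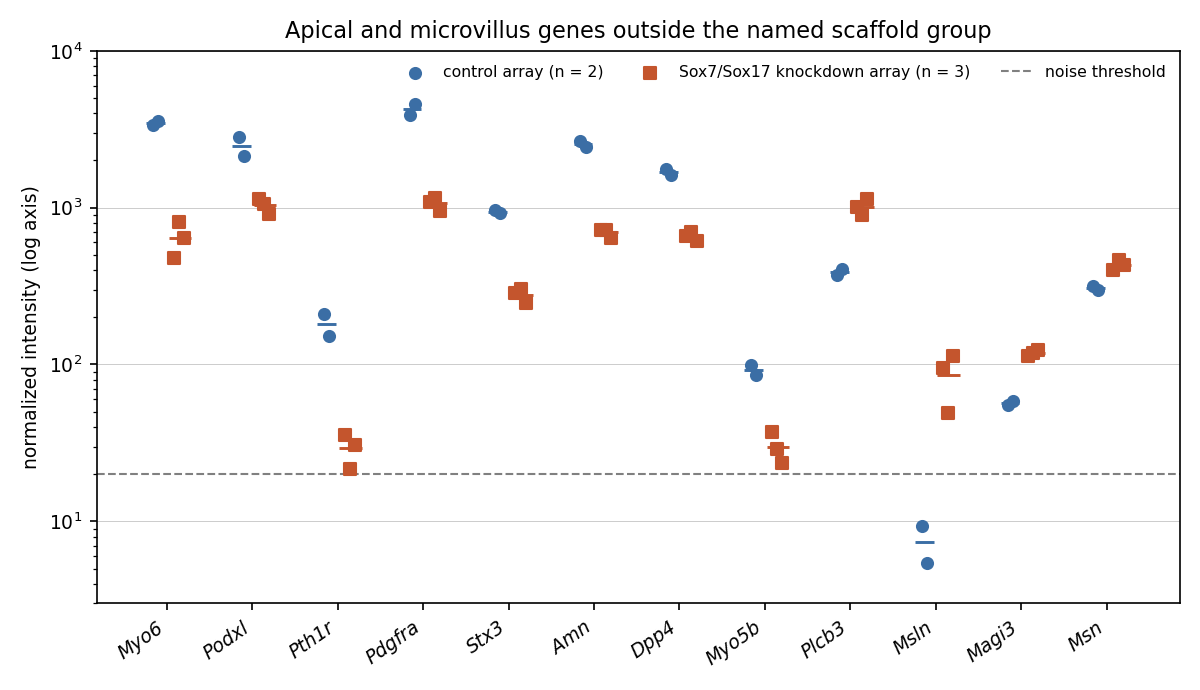
Normalized intensity (log axis) on the 2 control arrays (circles) and 3 knockdown arrays (squares) for 12 called genes of the apical lists, with bars for group means and a dashed line at the noise threshold. The first 8, from Myo6 to Myo5b, are lower on all 3 knockdown arrays, and the last 4, from Plcb3 to Msn, are higher on all 3, with both Msln controls under the noise threshold.

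Among genes of apical polarity and apical vesicle fusion, 5 of 20 tested fell and 2 rose (35% beside 17%), with a median of -0.19. Stx3, the syntaxin of the apical membrane, read 969 and 919 in control and 286, 301 and 245 in knockdown arrays and fell by 1.72 (SE 0.119, limma adjusted p = 0.0011), and stayed called whichever array was dropped. Lin7b, a small PDZ adaptor, fell by 0.79 (limma adjusted p = 0.012), a call lost without control replicate 2 (0.077), while 1 other probe differed by -0.80 and was not called (limma adjusted p = 0.062). The remaining probe was under the noise threshold on all 3 knockdown arrays and at least 1.56-fold lower. It passed the filter only through the control arrays, which fixed its direction. Prkcz, an atypical protein kinase C, fell by 0.63 (limma adjusted p = 0.010), lost without either control array (0.065 in both cases). Llgl1 and Llgl2, basolateral polarity genes, rose by 0.50 and 0.41 and lost their calls without any 1 array (limma adjusted p up to 0.18 and 0.15). The falls numbered 2 without control replicate 1, 1 without control replicate 2 and 4 without any 1 knockdown array.

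Of 26 other PDZ scaffold genes tested, 6 were called higher and 2 lower (30.8% beside 17%), while 14 differences were below 0 and 12 above, with a median of -0.03. Tax1bp3, a protein that is almost wholly 1 PDZ domain, fell by 1.01 (SE 0.106, limma adjusted p = 0.0035), from 4286 and 4362 to 2334, 2051 and 2044, and its other probe differed by -1.05. Mpp1, a membrane palmitoylated scaffold, fell by 0.69 (limma adjusted p = 0.0080), lost without control replicate 1 or 2 (0.056 and 0.052). Magi3, a junction scaffold, rose by 0.88 (SE 0.0967, limma adjusted p = 0.0040), from 55.0 and 58.9 to 113, 118 and 124, and its other probe differed by 0.52 (limma adjusted p = 0.090). Mpp3 rose by 0.78 (limma adjusted p = 0.0090), lost without control replicate 1 (0.055), and its other 2 probes differed by 0.14 and 0.22 and were not called. Whrn, a scaffold of hair cell stereocilia, rose by 0.71 (limma adjusted p = 0.030), lost without either control array or without knockdown replicate 2 or 3 (up to 0.15). The rises numbered 1 and 2 without control replicates 1 and 2, and 3 without knockdown replicate 2 or 3, and 1 fall was called in place of 2 without either control array.

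Enzymes and receptors of the brush border surface were measured only in part, with 9 of 29 listed genes tested, and 2 fell and 1 rose (33.3% beside 17%). Amn, the membrane anchor of the apical endocytic receptor and also a visceral endoderm marker, fell by 1.85 (SE 0.107, limma adjusted p = 0.00081), from 2653 and 2431 to 717, 723 and 643. Dpp4, a brush border dipeptidyl peptidase, fell by 1.34 (SE 0.106, limma adjusted p = 0.0014), from 1770.1 and 1609 to 657, 695 and 617. For both genes the arrays were well separated, and the call did not depend on any 1 array. Alpl, an alkaline phosphatase, rose by 0.54 (limma adjusted p = 0.040), lost without either control array or without knockdown replicate 2 or 3 (up to 0.20).

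The genes whose profile over the 5 arrays lay nearest to that of Pdzd3 were, in order, Aqp8, a water channel, Pga5, a pepsinogen, the targeted gene Sox17, B4galnt2, a glycosyltransferase, and Hkdc1, a hexokinase relative. Likeness was the distance between log2 values, each gene centred on its mean over the arrays, and ran from 0.31 for Aqp8 to 0.40 for Hkdc1. Aqp8 read 1026 and 1035 in control and 162, 174 and 119 in knockdown arrays, a difference of -2.66. With 5 arrays in 2 groups this measure mainly finds genes that fell by a like amount. Of the other members, Eps8 was nearest at 1.44, rank 103 of 9684 genes, and Ezr was farthest at 3.52.

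Markers of cell state moved with these changes. Beside each list the background is 7.97% of all tested genes lower and 8.99% higher, and each sum is over all markers with a probe, values below 0 taken as 0, so it is carried by the brightest probes. Of 12 tested parietal endoderm markers 10 fell, among them Lama1 and Snai1, which passed the filter only through the control arrays. The sum over 13 parietal markers was 69649.8 to 71553 in control and 19596 to 22613 in knockdown arrays, with Col4a1 and Col4a2 making 67.1% to 79.9% of it. Of 7 tested visceral endoderm markers 5 fell and 1 rose, but Ttr among the falls and the rise, Trf, passed only through 1 group. The visceral sum over 11 markers was 4757 to 5011 against 1697 to 1856, with Amn and Apoe making 70.9% to 74.8% of it, and Afp, Apoa4 and Fgb were under the threshold on all arrays.

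The 11 tested genes of undifferentiated embryonal carcinoma were above the noise threshold on all arrays, with 3 higher and 1 lower. Those 3 rises lost their calls without either control array, and the fall, of Lin28a, without control replicate 1. Their sum was 43702 to 47258 in control and 52679 to 53949 in knockdown arrays, with Esrrb and Nanog making 65.6% to 67.7% of it. Of 12 fibroblast and smooth muscle markers 5 were tested and called higher, 1 of them, Dcn, having passed only through the knockdown arrays. Without control replicate 2, or without knockdown replicate 2 or 3, 3 of these rises were called. The sum over the 12 was 274 to 286 against 832 to 1060.3, with Acta2 alone making 48.7% to 56.7% of it in the knockdown arrays, while Col1a2, Col3a1, Lum, Tagln, Cnn1 and Postn were under the threshold on all arrays. Of 5 tested neuroectoderm markers 2 rose. Their sum over 10 markers was 547 to 589.8 against 1232 to 1352, with Gap43 making 63.9% to 75.1% of it, and Sox1, Pax6, Otx2, Ncam1 and Map2 were under the threshold on all arrays. The part of these shifts in the values of Pdzd3, Eps8, Ezr and the apical lists was not tested. In such bulk RNA, fewer cells of a type and less RNA per cell cannot be told apart.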

How the data were processed

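The deposited intensities are 1 normalized value per probe and array on a linear scale. No label or header used here records how the authors normalized them. Of each array's values 29.1% to 29.2% lie below 0, and the sorted values of the 5 arrays differ by at most 0.394, so all arrays share 1 distribution. A non-normalized table was not used, since the headings of its 10 value columns match no sample label.

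Values below 0 were set to 0, 16 was added and log2 taken. The noise threshold of an array is the 90% quantile of the sizes of its values below 0. Probes above it on at least 2 of 5 arrays were tested, 13624 in all. The test was limma 3.58.1 in R 4.3.3 (lmFit, eBayes, no covariate, 3 residual degrees of freedom), with Benjamini-Hochberg adjustment over all tested probes. The fit was also run on simulated data with independent noise, which cannot show effects shared by arrays. Tables and figures used Python 3.11.15, pandas 2.3.3 and matplotlib 3.10.9. Where all arrays of a group lie under the noise threshold the fold is only a bound, the brighter group's mean against the higher of threshold and signal. Exact permutation of single values cannot go below p = 0.1 with 5 arrays.

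Gene names came from the platform annotation: 20984 probes had 1 symbol, 1 had several and the others were unnamed. Symbols were checked by gene identifier against RefSeq GRCm38.p6, and start regions are RefSeq's. A gene is represented by its brightest tested probe. Named are all members, up to 3 called genes per direction and list with the largest differences, direct partners and paralogs, and the 5 genes most like Pdzd3. The members and lists were chosen with earlier results of these data known. The labels do not say that the numbers pair samples, and they were not taken to. Deviations of same-numbered arrays correlated at 0.0072 and 0.073, and those of arrays with unlike numbers at -0.073 to 0.065. The deviations of the 2 controls are exact opposites, so this check cannot decide whether samples were paired. The number of arrays limits the precision.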

Additional observations from a re-analysis of the deposited data

How the results depend on the processing

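The fall of Eps8 was called under all 16 alternatives, at -1.53 to -1.15. Pdzd3 was lower under all of them, at -2.89 to -2.54 with an array left out. Of the members other than Pdzd3, 1 was called in place of 2 with the replicate number as a block, and 1 whichever array was left out, the call of Ezr being lost each time (with the replicate block, limma adjusted p = 0.093). With an array fewer the test has fewer residual degrees of freedom, and a call can be lost at the same difference. Genes called over the whole table, 1643 of 9685 tested, became 828 with the replicate block and 2621 with a variance trend. They ranged from 443 to 1107 with an array left out. With no filter on dim probes 770 were called, but of 15967 tested. With the replicate block, knockdown replicate 3 has no same-numbered control, so the differences equal those without that array, -1.32 for Eps8 in both runs. The block also leaves fewer residual degrees of freedom. Apart from this and the fewer arrays, the cause of these shifts was not tested. Of 27 called genes named from the lists, 11 kept the call with each array left out and 9 under every alternative, and no called gene changed sign. An offset of 64 brought Myo5b to -0.73, Pth1r to -1.39 and Stk10 to 0.28, the last no longer called (limma adjusted p = 0.054), and the mean of its probes brought Mpp3 to 0.38. Probes near the noise threshold, those of Pdzk1, Vil1 and 1 of Slc9a3r2, cannot show a fall in full.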

Other observations

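Genes beside the members on the chromosome were looked up in the GRCm38.p6 annotation, by a rule chosen after the values of these members were seen: the 2 nearest tested genes on each side. Of the 32 neighbours of all 8 members, limma called 1 lower and 4 higher, 15.6% beside 17% of all tested genes. Limma called 0 of the 12 neighbours of Pdzd3, Eps8 and Ezr, 3 of which had an unadjusted p under 0.05, and 5 of the 20 neighbours of the other members. The difference between these shares was not tested. Among the rises, Rab37, beside Slc9a3r1, was under the noise threshold in both controls and at least 2.05-fold higher. It passed the filter only through the knockdown arrays, which fixed its direction. Beside Pdzd3, Mcam, Cbl and Abcg4 differed by 0.54, 0.38 and 0.32, and Hinfp, under the noise threshold on all 3 knockdown arrays, was at least 1.57-fold lower and not called (limma adjusted p = 0.056). Hinfp passed the filter only through the control arrays, which fixed its direction. Beside Ezr, Tmem181a differed by -0.35 (limma adjusted p = 0.053). Beside Eps8, Pde6h, Rerg, Strap and Dera differed by 0.03, 0.29, 0.04 and -0.05.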
